A study of Caenorhabditis elegans with 15 samples.

Results

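The sperm function genes of Caenorhabditis elegans described here are the protein-coding genes whose RefSeq symbol is spe-, fer-, smz- or sss- followed by a number. The rule found 38 genes among the 46929 genes of the count table, 19982 of which are protein-coding. RNA was taken from whole worms, so each value is a level in the whole animal. The first group of 5 libraries, ACP7 OE (strain ABR275), carried a transgene in which ges-1p, the promoter of a gut esterase gene, drives F21A3.11, the gene of a secreted phosphatase called ACP7. Behind it stand SL2WormScarlet, a trans-spliced red reporter, and the 3'UTR of unc-54. The second group of 5, ACP7-7A OE (strain ABR484), carried F21A3.11-7A, a form labelled as catalytically dead, in a transgene with the same promoter, reporter and 3'UTR. The 5 libraries of the third group came from the wild-type laboratory strain N2, which carries neither transgene. The labels give a single strain for each construct, no age, stage or sex of the worms, and no statement that the 5 libraries of a group came from separate cultures. The p-values below therefore measure the spread between these libraries, which may be technical. F21A3.11 averaged 610 ± 29.8 CPM (counts scaled to the size of the library) in ACP7 OE, 1363 ± 229 CPM in ACP7-7A OE and 15 ± 1.52 CPM in wild type (SD, n = 5 each), so each library matched its label for the overexpressed gene, and the constructs differed in RNA dose.

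A C. elegans hermaphrodite makes its sperm first, in the larva, and then turns its germ line to oocytes, so that a self-fertile adult lives on a stored supply. The sperm have no flagellum. A round spermatid is activated into a crawling cell whose pseudopod is driven by the major sperm protein, which has been packed during spermatogenesis in an organelle called the fibrous body and membranous organelle complex. Most spe and fer genes were found as mutants whose sperm fail to form, to be activated or to fertilize the egg, while oocytes stay normal. In bulk RNA, fewer cells of a type and less RNA per cell cannot be told apart.

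By role, 8 of the 38 genes belong to sperm activation, 10 to the fibrous body and membranous organelle, 8 to the sperm surface and fertilization, 2 encode PDZ proteins of sperm meiosis, and 1 each encodes a transcription factor and a paternal factor needed by the embryo. For the other genes no role is given here. On the genome build of the count table (WBcel235) 15 members, 39.5%, lay on chromosome I, which holds 14.4% of the protein-coding genes. A further 13 members, 34.2%, lay on chromosome IV, which holds 16.4%. Chromosome V held 5 members, chromosome III 3 and chromosome II 2. The X chromosome, with 13.7% of the protein-coding genes, held 0. The closest neighbours were spe-44 (chromosome IV, 12452063 to 12454215, minus strand) and smz-1 (chromosome IV, 12455050 to 12456299, plus strand), which point away from each other across a gap of 834 bp.

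Of the 38 members, 34 had enough counts to be tested, together with 15725 genes in all. A gene was kept when it reached about 0.223 CPM in at least 5 of the 15 libraries. For 7 of the 34, spe-58, spe-21, spe-40, spe-43 and spe-42 among them, fewer than 5 libraries outside ACP7 OE reached that level, so their place among the tested genes owed something to ACP7 OE. The 4 members left out were spe-19, spe-27, spe-29 and spe-38. The spe-19 gene had 46 counts over the 5 ACP7 OE libraries, 28 over those of ACP7-7A OE and 14 over those of wild type. For spe-27 the sums were 24, 3 and 16 counts. For spe-38 they were 19, 21 and 6 counts. The spe-29 gene had 5 counts in ACP7 OE, 0 in ACP7-7A OE and 4 in wild type, and 34.1% of its exon bases overlap gon-1 on the opposite strand. The genes spe-19, spe-27 and spe-29 act in the signalling pathway by which hermaphrodite spermatids are activated, so that pathway could be followed here only through spe-8, spe-12 and spe-43.

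The members differed widely in level. Per kilobase of exon, the highest was spe-39, a vesicle trafficking gene with uses well beyond sperm, at 52.8 CPM per kb in ACP7 OE, 53.3 in ACP7-7A OE and 50.7 in wild type. It was followed by spe-48 at 32.2, 32.9 and 32.6 CPM per kb, and by spe-44, which encodes a transcription factor of the sperm programme, at 15, 14.5 and 13.3 CPM per kb. At the other end stood spe-29 at 0.0646, 0 and 0.0581 CPM per kb, spe-42 at 0.176, 0.0914 and 0.0181, and spe-38 at 0.105, 0.140 and 0.0458. The median over the 34 tested members, averaged over all libraries, was 0.846 CPM per kb, against 6.81 over the 14978 tested protein-coding genes. Only 7 members passed 5 CPM per kb in the mean of the groups, and 22 lay under 1. Most members were therefore measured on few counts, and the levels of the least abundant cannot be ordered with confidence.

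**Figure D1:**
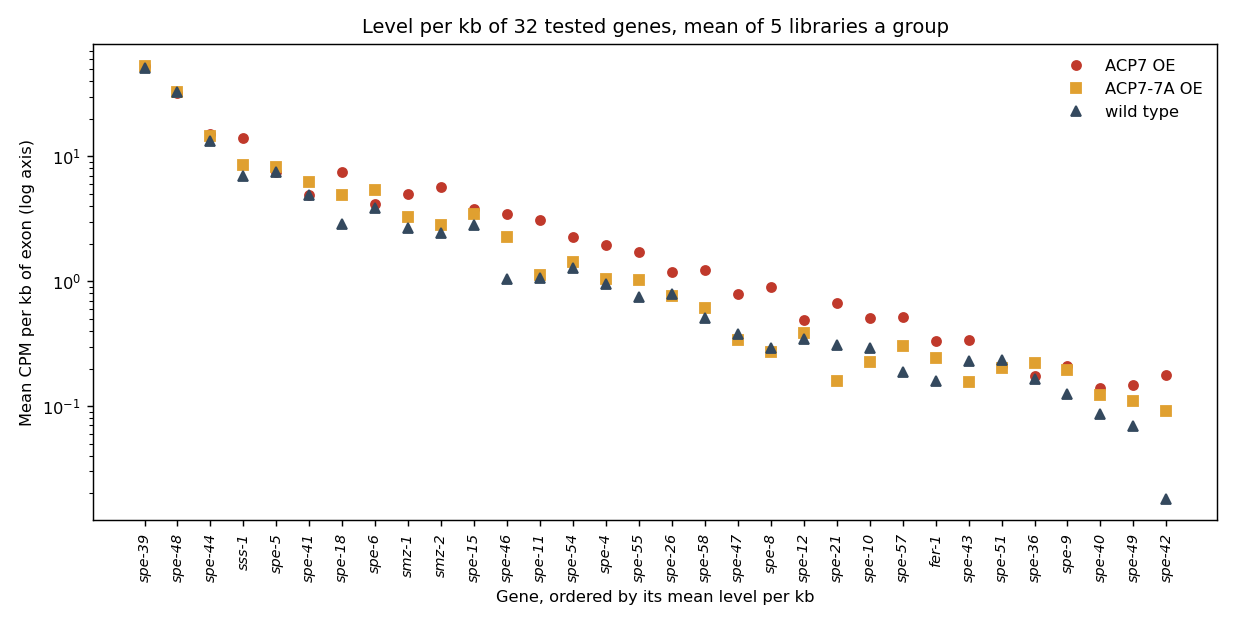
Mean level per kilobase of exon (CPM per kb, log axis) of 32 of the 34 tested sperm function genes in ACP7 OE (circles), ACP7-7A OE (squares) and wild type (triangles), ordered by their mean; each point is the mean of 5 libraries. On the left, spe-39 and spe-48 coincide in the 3 groups, while sss-1 and most genes from spe-18 rightwards lie highest in ACP7 OE.

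Nearly flat over all 15 libraries, with the highest library under 2 times the lowest, were 5 of the 34 tested genes: spe-39, spe-48, spe-44, spe-5 and spe-41. Over the 5 libraries of a group, spe-39 averaged 99.6 ± 4.87 CPM in ACP7 OE, 101 ± 7.68 CPM in ACP7-7A OE and 95.7 ± 6.21 CPM in wild type (SD, n = 5). The spe-5 gene, which encodes a subunit of the vacuolar proton pump, averaged 12.6 ± 0.435, 13.7 ± 1.28 and 12.4 ± 1.23 CPM in the same order. The other 29 genes varied more. For 28 of the 34 the SD of log2(CPM + 0.1) was larger within ACP7-7A OE than within ACP7 OE.

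Within ACP7-7A OE, libraries 1 and 2 stood apart. They did so in the overall profile too: on principal component 1, computed from the 2000 genes of largest variance, they lay at 40.9 and 44.1, against 1.89 to 9.32 for libraries 3 to 5, -46.8 to -31.5 for ACP7 OE and 16 to 30 for wild type. The 6 body wall muscle markers summed to 1687 and 2001 CPM in ACP7-7A OE libraries 1 and 2 and to 2952 to 3137 CPM in libraries 3 to 5. The muscle sum was 1738 to 2347 CPM in ACP7 OE and 1809 to 2580 CPM in wild type, lowest there in library 5. The part of muscle RNA in the sperm gene levels was not tested. The median log2(CPM + 0.1) of the 34 genes was -0.79 in ACP7-7A OE library 1 and -1.22 in library 2, against 0.49, 0.69 and 0.62 in libraries 3 to 5. In ACP7 OE it lay between 0.54 and 1.08, and in wild type between -0.43, in library 5, and 0.12. ACP7-7A OE libraries 1 and 2 were thus below every wild-type library, while libraries 3 to 5 were above every one. In single libraries of ACP7 OE, between 18 and 23 of the 34 genes exceeded all 5 wild-type libraries. In ACP7-7A OE, libraries 1 to 5 had 6, 1, 16, 20 and 19 such genes, and 11 and 14 genes in libraries 1 and 2 lay below all wild-type libraries. The highest of the 15 libraries was from ACP7 OE for 23 genes, from ACP7-7A OE for 10 and from wild type for 1. The lowest was from ACP7 OE for 3, from ACP7-7A OE for 20 and from wild type for 11. Each comparison below is given with all libraries and, where that changes it, without ACP7-7A OE libraries 1 and 2, an alternative chosen after seeing the data. Because these 2 libraries have the lowest medians, leaving them out raises the ACP7-7A OE levels by the choice itself. Library totals ran from 39180648 to 58077047 counts in ACP7 OE, from 41696722 to 50869260 in ACP7-7A OE and from 39050495 to 49452773 in wild type.

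**Figure D2:**
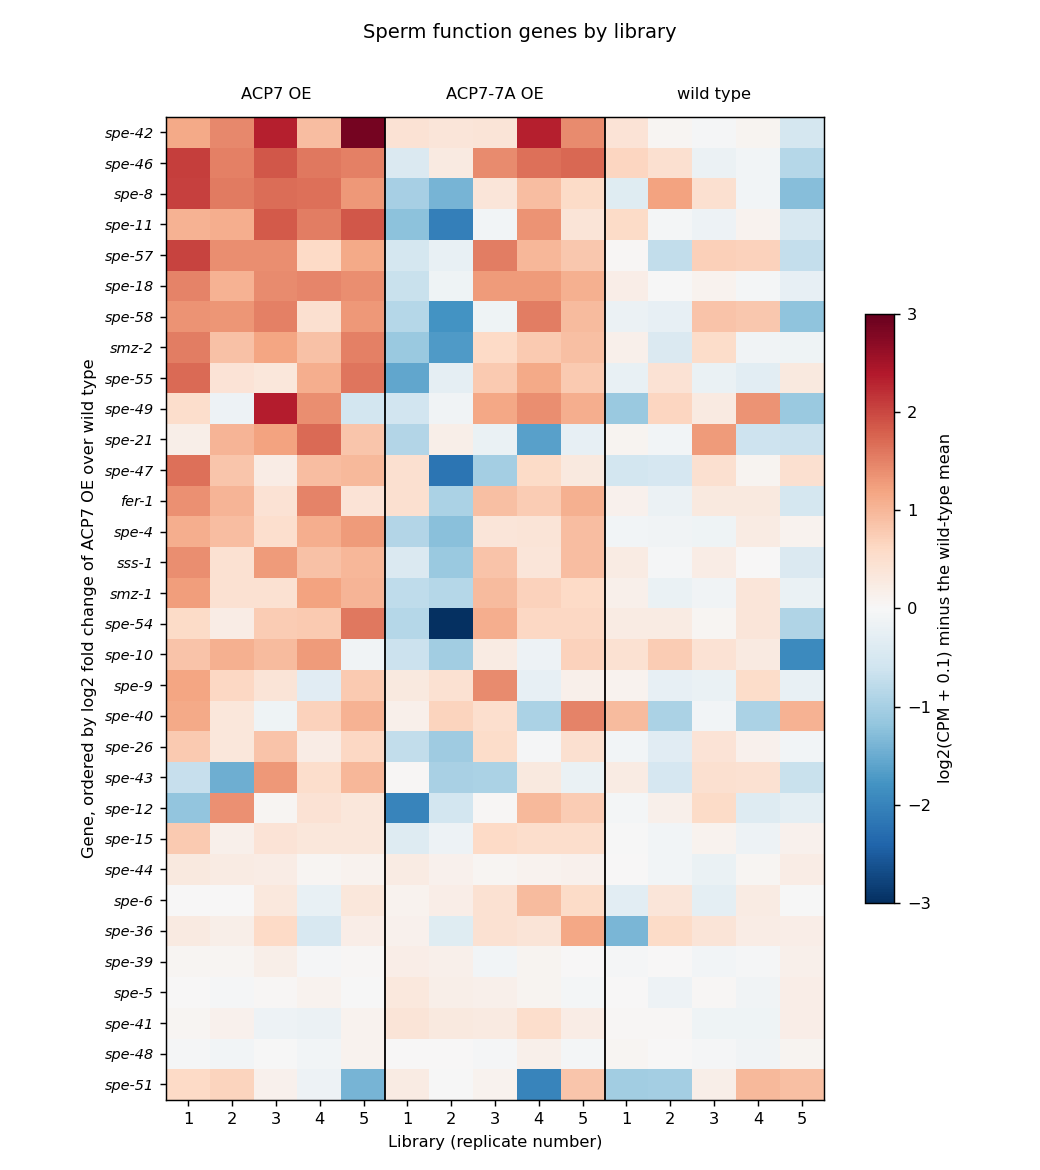
Level of 32 of the 34 tested sperm function genes in each of the 15 libraries, as log2(CPM + 0.1) minus the gene's wild-type mean (colour scale, red higher, blue lower), with genes ordered by their log2 fold change in ACP7 OE against wild type. Red covers most genes in the 5 ACP7 OE libraries and in ACP7-7A OE libraries 3 to 5, and blue covers many in ACP7-7A OE libraries 1 and 2. Near the bottom, the rows of spe-48, spe-5 and spe-39 are pale throughout.

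With ACP7 OE set against wild type, the levels of most sperm function genes were higher in ACP7 OE, and for 3 of the 34 tested the difference passed. These were spe-46, which acts in meiosis and sperm activation, spe-18, needed for the fibrous body, and spe-42, a membrane protein of the sperm needed at fertilization. All 3 rose and 0 fell at an adjusted p under 0.05 (edgeR quasi-likelihood test, Benjamini-Hochberg over 15725 genes). Of all genes tested, 2.68% passed, 1.48% as higher and 1.2% as lower. At an unadjusted p under 0.05, 14 of the 34 were higher, against 7.82% of all genes, and 0 were lower, against 8.63%. DESeq2's Wald test called 6 as higher, where it called 2.52% of all genes, and 0 as lower, where it called 2.07%. Every ACP7 OE library lay above every wild-type library for 11 of the 34 genes, against 4.39% of all genes tested, and the reverse held for 0 of the 34, against 2.33% of all genes. The log2 fold change was above 0 for 31 of the 34, against 49.2% of all genes, and at least 1 for 16, against 5.37%. Its median was 0.93 over the 34 genes and -0.004 over all genes tested. Among the 18 members with a mean of at least 1 CPM over all libraries, the log2 fold change was above 0 for 16 and at least 1 for 8, with a median of 0.88, and groups did not overlap for 9. In the 12031 genes of that level, 2.13% had a log2 fold change of at least 1 and 3.78% did not overlap as higher.

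The activation genes were led by spe-46 (chromosome I, 9056293 to 9057824, plus strand). Its level was 4.41, 2.98, 3.80, 3.13 and 2.95 CPM in ACP7 OE libraries 1 to 5. In ACP7-7A OE it was 0.688, 1.20, 2.75, 3.29 and 3.42 CPM, and in wild type 1.58, 1.40, 0.849, 0.906 and 0.493 CPM. All 5 ACP7 OE libraries were above the wild-type range, whereas ACP7-7A OE libraries 1 and 2 lay inside it and libraries 3 to 5 above it. The gene rose 3.30-fold in ACP7 OE (edgeR log2 fold change 1.72 with SE 0.37 and adjusted p = 0.010), and passed whichever single library of the 15 was left out, at adjusted p values of 0.00063 to 0.047.

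Another activation gene, spe-8 (chromosome I, 118093 to 120901, plus strand), encodes a non-receptor tyrosine kinase of the spermatid. Its level was 1.86, 1.31, 1.44, 1.41 and 1.07 CPM in ACP7 OE libraries 1 to 5. In ACP7-7A OE it was 0.138, 0.0828, 0.516, 0.810 and 0.606 CPM, and in wild type 0.274, 1.01, 0.566, 0.352 and 0.0986 CPM. Every ACP7 OE library was above every library of the other groups, which overlapped each other. The difference of ACP7 OE from wild type did not pass (edgeR log2 fold change 1.62 with SE 0.53 and adjusted p = 0.11). Of the other activation genes, spe-47, which encodes a protein with a major sperm protein domain, averaged 0.992 ± 0.396 CPM in ACP7 OE, 0.428 ± 0.312 in ACP7-7A OE and 0.475 ± 0.193 in wild type (SD, n = 5), with overlap. The spe-12 gene averaged 0.426 ± 0.310, 0.340 ± 0.276 and 0.304 ± 0.114 CPM, and spe-43 0.281 ± 0.246, 0.130 ± 0.0868 and 0.192 ± 0.0999 CPM, in the same order of groups. Neither spe-12 nor spe-43 set the groups apart. Of the 5 tested activation genes, 1 rose in ACP7 OE against wild type, where 1.48% of all genes rose. All 5 had a log2 fold change above 0 (median 1.06), against 49.2% of all genes.

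**Figure D3:**
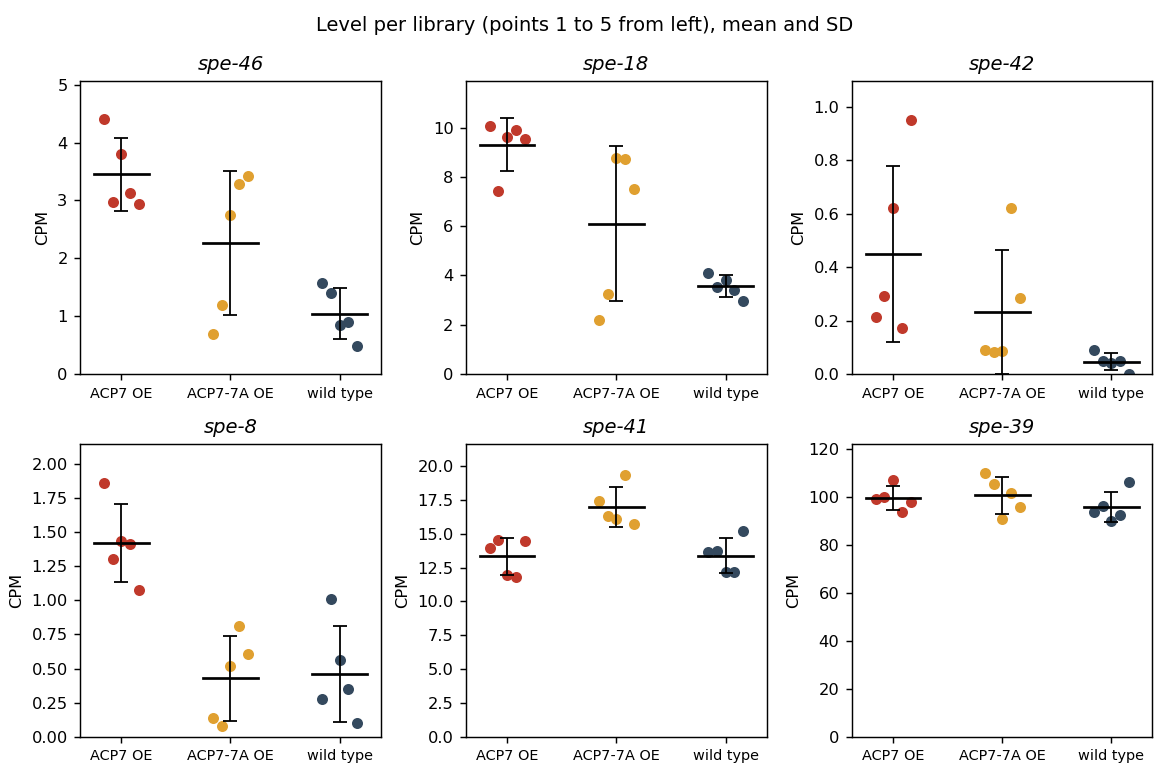
Levels in CPM of spe-46, spe-18, spe-42, spe-8, spe-41 and spe-39 in ACP7 OE (red), ACP7-7A OE (yellow) and wild type (dark blue), with 1 point per library (1 to 5 from left), the mean (bar) and the SD (whiskers). The ACP7 OE points of the first 4 genes lie above all wild-type points, ACP7-7A OE libraries 1 and 2 lie low for spe-46 and spe-18, spe-41 is highest in ACP7-7A OE, and spe-39 coincides in the 3 groups.

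The fibrous body and membranous organelle genes were led by spe-18 (chromosome II, 13151459 to 13153399, minus strand). Its level was 10.1, 7.41, 9.62, 9.91 and 9.54 CPM in ACP7 OE libraries 1 to 5. In ACP7-7A OE it was 2.20, 3.23, 8.78, 8.72 and 7.52 CPM, and in wild type 4.11, 3.52, 3.82, 3.42 and 2.96 CPM. The ACP7 OE libraries were all above the wild-type ones. ACP7-7A OE library 1 was below the wild-type range, library 2 inside it and libraries 3 to 5 well above it. The gene rose 2.61-fold in ACP7 OE (edgeR log2 fold change 1.38 with SE 0.29 and adjusted p = 0.014), a call that 1 of the 15 omissions of a single library ended, that of wild-type library 4 (adjusted p = 0.056).

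Next to spe-18 stood 3 genes of the same organelle whose ACP7 OE and wild-type libraries did not overlap but whose difference did not pass. The presenilin-like gene spe-4 was at 3.35, 2.95, 2.21, 3.34 and 3.80 CPM in ACP7 OE libraries 1 to 5, at 0.780, 0.580, 1.98, 2.03 and 2.99 CPM in ACP7-7A OE and at 1.42, 1.40, 1.38, 1.81 and 1.63 CPM in wild type (log2 fold change of ACP7 OE over wild type 1.04, SE 0.32, edgeR adjusted p = 0.087). The ferlin gene fer-1, which acts when membranous organelles fuse with the cell surface, was at 2.69, 2.08, 1.34, 2.91 and 1.32 CPM in ACP7 OE, at 1.40, 0.456, 1.89, 1.72 and 2.14 CPM in ACP7-7A OE and at 1.07, 0.843, 1.21, 1.21 and 0.641 CPM in wild type (edgeR log2 fold change 1.05 with SE 0.34 and adjusted p = 0.11). The myosin VI gene spe-15 ranged from 12.2 to 19 CPM in ACP7 OE, from 8.42 to 16.7 CPM in ACP7-7A OE and from 9.86 to 12.1 CPM in wild type (edgeR log2 fold change 0.41 with SE 0.16 and adjusted p = 0.20). For all 3 genes ACP7-7A OE straddled the other groups, and its libraries 1 and 2 were its lowest.

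Other organelle genes overlapped between ACP7 OE and wild type. The kelch-domain gene spe-26 averaged 2.11 ± 0.414 CPM in ACP7 OE, 1.34 ± 0.660 in ACP7-7A OE and 1.39 ± 0.296 in wild type (SD, n = 5). The palmitoyltransferase gene spe-10 averaged 0.587 ± 0.209, 0.262 ± 0.169 and 0.340 ± 0.201 CPM, in the same order. The kinase gene spe-6 departed from this order, with 5.23 ± 0.887 CPM in ACP7 OE, 6.80 ± 1.66 CPM in ACP7-7A OE and 4.93 ± 1.04 CPM in wild type. Counting all 10 tested genes of the organelle, 1 rose in ACP7 OE against wild type, where 1.48% of all genes rose. The log2 fold change was above 0 for 10 (median 0.69), against 49.2% of all genes.

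Of the 7 tested fertilization genes 1 rose in ACP7 OE against wild type, where 1.48% of all genes rose. The log2 fold change was above 0 for 5 of the 7 (median 0.75), against 49.2% of all genes. The gene that rose was spe-42 (chromosome V, 11733540 to 11736996, minus strand), a gene for a sperm membrane protein related to DC-STAMP. It reached the level needed for testing in 3 ACP7 OE, 2 ACP7-7A OE and 0 wild-type libraries. The gene was thus tested only through the constructs, where it is higher, and would not have been tested without ACP7 OE. It had too few counts to be tested under the stricter filter, with halved counts or with only ACP7 OE and wild type in the fit. It had 12, 12, 32, 8 and 38 counts in ACP7 OE libraries 1 to 5, 4, 4, 4, 26 and 14 counts in ACP7-7A OE, and 4, 2, 2, 2 and 0 counts in wild type. Every ACP7 OE library was above every wild-type library, and the spread within ACP7 OE was wide, from 0.171 to 0.949 CPM. The log2 fold change was 3.20 (SE 0.84, edgeR adjusted p = 0.039) on a wild-type sum of 10 counts, and the call was lost when any of 8 of the 15 libraries was left out, namely ACP7 OE library 2, 3 or 5 or any wild-type library, with adjusted p values up to 0.12.

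Other fertilization genes overlapped between ACP7 OE and wild type. The EGF-repeat gene spe-9 averaged 0.427 ± 0.188 CPM in ACP7 OE, 0.397 ± 0.244 in ACP7-7A OE and 0.254 ± 0.0897 in wild type (SD, n = 5). The spe-49 gene, a relative of spe-42, averaged 0.368 ± 0.393, 0.275 ± 0.189 and 0.171 ± 0.189 CPM, in the same order. The genes for the secreted proteins SPE-36 and SPE-51 lay close in the 3 groups: spe-36 averaged 0.197 ± 0.0734, 0.254 ± 0.143 and 0.186 ± 0.110 CPM, and spe-51 averaged 0.334 ± 0.196, 0.317 ± 0.217 and 0.370 ± 0.284 CPM. No library held more than 52 counts of any of these 4 genes. The most abundant gene of the group, spe-41, is described with the constructs below.

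The paternal factor gene spe-11, whose product goes with the sperm into the egg and is needed by the embryo, was at 2.19, 2.23, 3.84, 3.08 and 3.90 CPM in ACP7 OE libraries 1 to 5. In ACP7-7A OE it was at 0.367, 0.166, 0.947, 2.72 and 1.33 CPM, and in wild type at 1.55, 0.963, 0.890, 1.08 and 0.690 CPM. ACP7 OE and wild type did not overlap, but the difference did not pass (edgeR log2 fold change 1.55 with SE 0.48 and adjusted p = 0.10). Both PDZ genes of sperm meiosis also lay apart: smz-1 ranged from 4.16 to 7.35 CPM in ACP7 OE, from 1.61 to 5.94 CPM in ACP7-7A OE and from 2.60 to 3.88 CPM in wild type. For smz-2 the ranges were 4.67 to 7.51, 0.704 to 4.81 and 1.83 to 3.70 CPM. ACP7 OE lay above wild type without overlap for both genes (log2 fold changes 0.93 and 1.22, edgeR adjusted p = 0.13 and 0.15). The transcription factor gene spe-44, next to smz-1 on the chromosome, did not share that pattern, with 24.5 ± 1.69 CPM in ACP7 OE, 23.7 ± 1.16 in ACP7-7A OE and 21.7 ± 2.37 in wild type (SD, n = 5; log2 fold change of ACP7 OE over wild type 0.18, SE 0.09, edgeR adjusted p = 0.30). Among genes with no role given here, sss-1 also did not overlap, with 8.67 to 16.7 CPM in ACP7 OE and 4.63 to 7.44 CPM in wild type (edgeR adjusted p = 0.12).

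**Figure D4:**
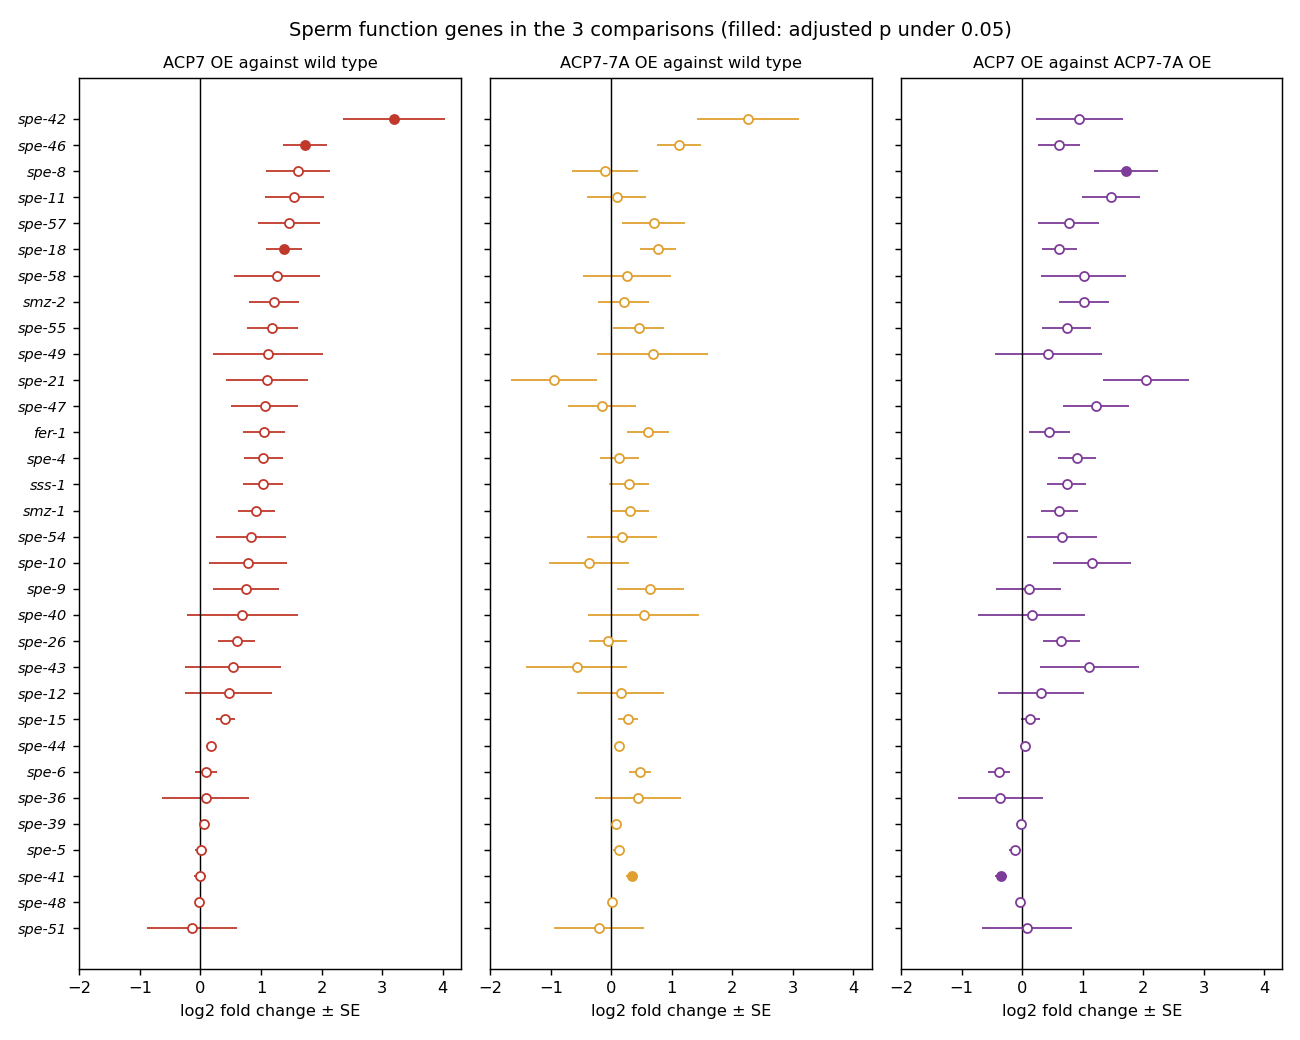
Log2 fold change with its SE for 32 of the 34 tested sperm function genes in ACP7 OE against wild type (left), ACP7-7A OE against wild type (middle) and ACP7 OE against ACP7-7A OE (right), with genes in the order of the left panel. Filled points passed at an adjusted p under 0.05, which holds for 3, 1 and 2 genes from left to right.

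All 15 libraries shared an estimate of spread, and the count of genes that rose in ACP7 OE changed with the libraries of the other construct. Without ACP7-7A OE libraries 1 and 2, 13 of 35 tested members rose in ACP7 OE against wild type and 0 fell, where 4.52% of all genes rose and 4.21% fell. They were spe-46, spe-18, spe-42, spe-4, spe-8, spe-11, spe-15, spe-55, spe-57, fer-1, sss-1, smz-1 and smz-2. With only ACP7 OE and wild type in the fit, 11 of 29 tested members rose and 0 fell, where 4.42% of all genes rose and 3.35% fell. The median log2 fold change hardly moved, at 0.91 and 0.93.

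In ACP7-7A OE against wild type, 1 of the 34 genes rose, spe-41, and 0 fell. Of all genes tested, 6.86% passed, 2.66% as higher and 4.2% as lower. At an unadjusted p under 0.05, 5 of the 34 were higher, against 11.2% of all genes, and 0 were lower, against 12.8%. DESeq2 called 3 as higher (spe-41, spe-46 and spe-18), where it called 4.95% of all genes, and 0 as lower, where it called 6.01%. The groups did not overlap, as higher, for 1 of the 34, against 2.12% of all genes, and as lower for 0, against 2.92%. The log2 fold change was above 0 for 26 of the 34, against 49.9% of all genes, and at least 1 for 2, against 1.64%, with a median of 0.23. With only these groups in the fit 0 of 27 tested members passed, where 1.7% of all genes rose and 3.43% fell. For spe-46 and spe-18, which rose in ACP7 OE, the log2 fold changes in ACP7-7A OE were 1.12 (SE 0.37) and 0.77 (SE 0.29), and they did not pass (edgeR adjusted p = 0.070 and 0.12). Both comparisons share the wild-type libraries.

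The result for ACP7-7A OE changed with its libraries 1 and 2. In these the same genes had their lowest medians, so leaving them out raises the group by the choice itself. Calls made that way describe libraries 3 to 5 and are not separate support for a rise. Without them 7 of 35 tested members rose against wild type and 0 fell, where 2.51% of all genes rose and 3.37% fell, and the median log2 fold change was 0.67. Those 7 were spe-46 (edgeR log2 fold change 1.59, adjusted p = 0.0012), spe-18 (1.22, adjusted p = 1.7e-05), smz-1 (0.76, adjusted p = 0.031), smz-2 (0.75, adjusted p = 0.043), sss-1 (0.72, adjusted p = 0.022), spe-6 (0.65, adjusted p = 0.039) and spe-15 (0.55, adjusted p = 0.0087). The spe-41 call was lost there at the same size of difference (log2 fold change 0.34, edgeR adjusted p = 0.089). The activation kinase gene spe-8 and the paternal factor gene spe-11 did not pass there, with log2 fold changes of 0.47 and 0.67. Wild-type library 5 was the lowest of its group in the median log2(CPM + 0.1) of the tested genes, though the highest in their summed CPM. When it was left out as well, 8 members rose in ACP7-7A OE and 0 fell, where 4.21% of all genes rose and 6.54% fell. In ACP7 OE 12 members then rose and 0 fell, where 6.28% of all genes rose and 8.69% fell.

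Between the constructs, ACP7 OE against ACP7-7A OE, 1 of the 34 genes was higher, spe-8, and 1 was lower, spe-41. Of all genes tested, 8.56% passed, 4.79% as higher and 3.76% as lower. At an unadjusted p under 0.05, 9 were higher, against 11.7% of all genes, and 2 were lower, against 11.2%. DESeq2 called 3 as higher (spe-8, spe-11 and spe-21), where it called 6.35% of all genes, and 1 as lower (spe-41), where it called 5.14%. For spe-8 the log2 fold change was 1.72 (SE 0.53, edgeR adjusted p = 0.045), but the call was lost in 11 of the 15 fits that left out a single library, and held without ACP7-7A OE library 4 or 5 or wild-type library 2 or 5. With ACP7-7A OE libraries 1 and 2 left out it was 1.13 (edgeR adjusted p = 0.15), and of 35 tested members 0 were then higher, against 4.91% of all genes, and 1 was lower, against 5%. With wild-type library 5 left out too, 0 were higher, against 6.67%, and 2 (spe-41 and spe-6) lower, against 6.93%. With only both constructs in the fit, 1 of 30 tested members passed as higher, against 4.17% of all genes, and 0 as lower, against 3.04%. Groups did not overlap, as higher, for spe-8 and spe-21, that is for 2 of the 34, against 4.21% of all genes, and as lower for spe-41, against 2.87%. The log2 fold change was above 0 for 28 of the 34, against 49.1% of all genes, and at least 1 for 10, against 4.79%. Among the 18 members with a mean of at least 1 CPM over all libraries it was above 0 for 13 and at least 1 for 2. In genes of that level the shares were 45.9% and 1.34%. Of the 16 members under 1 CPM, 15 were above 0 and 8 at least 1, where 59.6% and 16% of such genes were. Groups did not overlap, as higher, for 0 of the 18, against 3.97% of genes of that level. The spe-21 gene was at 0.251 to 0.899 CPM in ACP7 OE, at 0 to 0.248 CPM in ACP7-7A OE and at 0.0986 to 0.647 CPM in wild type, and did not pass (log2 fold change between the constructs 2.04, SE 0.71, edgeR adjusted p = 0.077). It reached the level needed for testing in 5 ACP7 OE, 1 ACP7-7A OE and 2 wild-type libraries. Being tested only through ACP7 OE, where it is higher, it gives no separate support by its missing overlap or its DESeq2 call. Over the 34 genes the median log2 fold change was 0.63 with all libraries and 0.15 without ACP7-7A OE libraries 1 and 2. That fall follows from leaving out the libraries lowest in these genes. For spe-46 and spe-18 the constructs did not differ past the threshold with all libraries (log2 fold changes 0.61 and 0.61, edgeR adjusted p = 0.32 and 0.21) or without them (0.12 and 0.15).

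The spe-41 gene (chromosome III, 3439011 to 3444210, minus strand), which encodes a calcium-permeable TRP channel of the sperm needed at fertilization, ran the other way. It was at 13.9, 14.5, 11.9, 11.8 and 14.5 CPM in ACP7 OE libraries 1 to 5, at 17.4, 16.3, 16.1, 19.3 and 15.7 CPM in ACP7-7A OE and at 13.6, 13.8, 12.2, 12.2 and 15.2 CPM in wild type. Every ACP7-7A OE library, libraries 1 and 2 included, was above every library of the other groups, which overlapped. The differences were small. The gene was 1.27-fold higher in ACP7-7A OE than in wild type (edgeR log2 fold change 0.34 with SE 0.10 and adjusted p = 0.043) and, with ACP7 OE set against that construct, lower in ACP7 OE (edgeR log2 fold change -0.35 with SE 0.10 and adjusted p = 0.033). Leaving out a single library ended the first call in 11 of 15 fits, all but those without ACP7 OE library 1 or 3, ACP7-7A OE library 5 or wild-type library 5. It ended the second in 4, those without ACP7 OE library 3 or 4 or ACP7-7A OE library 1 or 4. Between ACP7 OE and wild type the log2 fold change was -0.01 (SE 0.10).

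Sperm genes outside the naming rule gave context, though these lists too were drawn up with earlier results known. The 31 major sperm protein genes, the cytoskeletal proteins of the pseudopod, summed to 522, 338, 389, 420 and 383 CPM in ACP7 OE libraries 1 to 5, to 82.5, 80.1, 365, 364 and 375 CPM in ACP7-7A OE and to 226, 207, 249, 235 and 159 CPM in wild type. ACP7-7A OE libraries 1 and 2 were again below all others and libraries 3 to 5 above wild type. Of the 28 tested, 0 passed against wild type in either construct with edgeR. At an unadjusted p under 0.05, 17 were higher in ACP7 OE, against 7.82% of all genes, and 0 in ACP7-7A OE, against 11.2%. DESeq2 called 2 (msp-49 and msp-65) and 0, where it called 2.52% and 4.95% of all genes as higher. Between the constructs 1, msp-65, was higher in ACP7 OE (edgeR adjusted p = 0.048), with median log2 fold changes of 0.94, 0.23 and 0.73 in the 3 comparisons as ordered above. These genes are near-identical copies, and how reads matching several copies were counted is not given in the sources used here, so no single copy can be told from its relatives with certainty. For the same reason the 17 cannot be taken as a count of separate genes. Among 15 other tested sperm genes, edgeR called 0 in ACP7 OE against wild type, and 10 were higher at an unadjusted p under 0.05, against 7.82% of all genes. Their median log2 fold change was 0.95, and DESeq2 called 2 as higher, where it called 2.52% of all genes. Those 2 were peel-1, a sperm-delivered toxin gene, at 1.85 (SE 0.61, edgeR adjusted p = 0.11), and comp-1, a sperm competition gene, at 1.71 (SE 0.50, edgeR adjusted p = 0.071), as log2 fold changes. In ACP7-7A OE against wild type 2 of them rose, zipt-7.1, a zinc transporter gene of sperm activation (edgeR log2 fold change 0.27, adjusted p = 0.021), and cpb-1, an RNA-binding protein gene of spermatogenesis (0.23, edgeR adjusted p = 0.032).

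**Figure D5:**
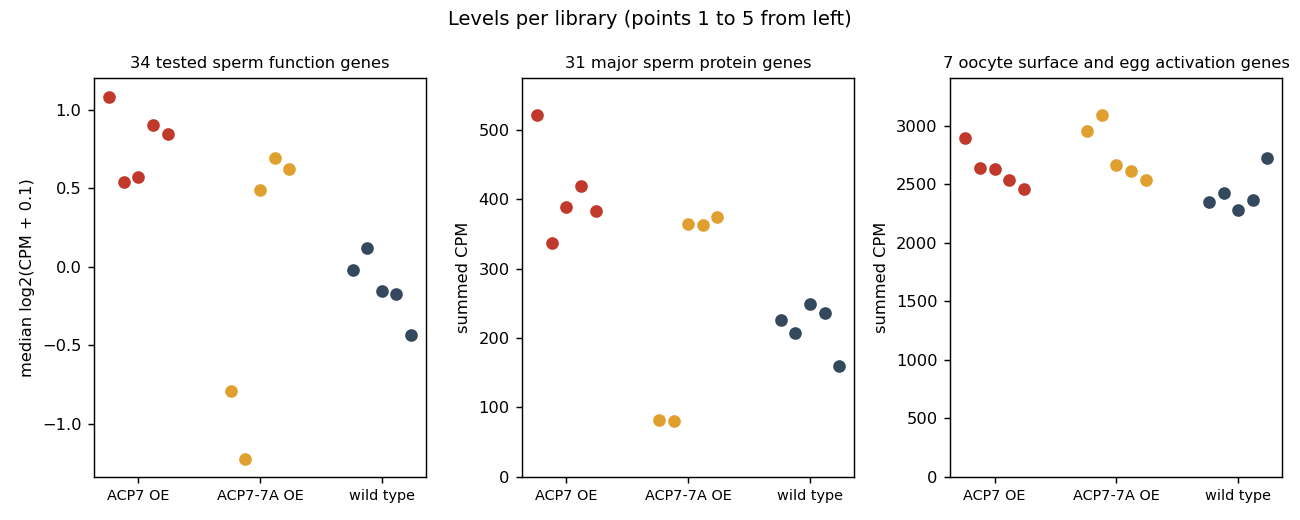
Per-library values in ACP7 OE (red), ACP7-7A OE (yellow) and wild type (dark blue), 1 point per library from 1 to 5: the median log2(CPM + 0.1) of the 34 tested sperm function genes (left), the summed CPM of 31 major sperm protein genes (middle) and of 7 oocyte surface and egg activation genes (right). ACP7-7A OE libraries 1 and 2 are the lowest points of the left and middle panels and the highest of the right panel.

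Genes of the choice between sperm and oocyte and genes of the oocyte mostly differed by small amounts. Of 15 tested genes of the sperm and oocyte decision, edgeR and DESeq2 called 0 in ACP7 OE against wild type, where 2 were higher at an unadjusted p under 0.05. In ACP7-7A OE against wild type edgeR called 1, tra-2 (edgeR log2 fold change 0.25, adjusted p = 0.033). DESeq2 called 3 there (tra-2, gld-1 and mog-4), and 5 were higher at an unadjusted p under 0.05. The difference of fog-3 was larger there but did not pass (edgeR log2 fold change 1.08 with SE 0.43 and adjusted p = 0.12). The 7 oocyte surface and egg activation genes summed to 2461 to 2898 CPM in ACP7 OE, 2536 to 3095 CPM in ACP7-7A OE and 2282 to 2728 CPM in wild type. Of these, 2 rose in ACP7-7A OE, egg-2 (edgeR log2 fold change 0.25, adjusted p = 0.023) and egg-1 (0.23, edgeR adjusted p = 0.036), both oocyte surface genes needed for fertilization, and DESeq2 called 3 (these and chs-1). Of 12 germline and oocyte markers, 4 rose in ACP7-7A OE, with log2 fold changes of 0.24 to 0.37 (pgl-3, rme-2, mex-3 and oma-2), and DESeq2 called 7. Between the constructs, mex-3 was lower in ACP7 OE (edgeR log2 fold change -0.24, adjusted p = 0.032). The sum of the 12 was highest in ACP7-7A OE library 2, at 10250 CPM, followed by library 1, at 9611 CPM. The part of this germline difference in the sperm gene levels was not tested.

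Each list of markers of other cells of the worm had counts in every group. The 12 male soma genes summed to 4.09 to 6.22 CPM in ACP7 OE, 3.53 to 5.01 CPM in ACP7-7A OE and 3.15 to 4.39 CPM in wild type, and 0 of the 6 tested passed in any comparison, with edgeR, with DESeq2 or at an unadjusted p under 0.05. On the scaled levels, the log2 fold change in ACP7 OE against wild type was above 0 for 6 of the 6 tested, against 49.2% of all genes. Summed over a group without scaling to library size, the counts of 12 of the 12 were higher in ACP7 OE than in wild type. Library totals reached 58077047 counts in ACP7 OE and 49452773 in wild type, so depth favours ACP7 OE in these sums. Between the constructs 9 were higher and 3 lower in ACP7 OE (dmd-3 with 42 counts in ACP7 OE against 56 in ACP7-7A OE, cwp-5 with 27 against 38 and xol-1 with 332 against 411). In ACP7-7A OE against wild type 8 were higher, 2 lower and 2 at 0 in both. The genes cwp-1 and cwp-3 had 36 and 6 counts over the ACP7 OE libraries and 0 in both ACP7-7A OE and wild type, while pkd-2 had 49, 34 and 8 counts in the 3 groups. The part of males in the sperm gene levels was not tested. Of 9 tested intestine markers, edgeR called 1 as lower in ACP7-7A OE against wild type (cpr-1) and 2 as higher in ACP7 OE between the constructs (cpr-1 and asp-1). DESeq2 called 2 (act-5 and cpr-1) and 3 (act-5, asp-1 and cpr-1) in these comparisons, and 0 in ACP7 OE against wild type. Intestine markers at an unadjusted p under 0.05 were 3 lower in ACP7-7A OE and 3 higher in ACP7 OE, each against wild type. Between the constructs 5 were higher in ACP7 OE at that threshold. Of 6 muscle, 6 neuron and 5 somatic gonad markers, edgeR called 0 in any comparison. Between the constructs, 4 muscle markers were lower in ACP7 OE at an unadjusted p under 0.05 and DESeq2 called 3 of them (myo-3, unc-15 and unc-22). Of the neuron markers 1 was higher and 2 were lower there at an unadjusted p under 0.05, with unc-119 called by DESeq2. At an unadjusted p under 0.05, 2 muscle, 1 neuron and 0 somatic gonad markers were lower in ACP7 OE than in wild type, and 0, 2 and 2 were lower in ACP7-7A OE than in wild type, where DESeq2 called 2 neuron markers.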

How the data were processed

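Poly(A) RNA of whole worms was sequenced in 15 libraries, 5 per group. The authors deposited unnormalized counts per gene in a single table, whose header names featureCounts 2.0.6 (per the file headers). The submitters' processing notes list Trim Galore, STAR and build WBcel235, with no tool version. How strand, multimapping reads and read mates were handled is not stated in the sources used here. In each library 81.3% to 86.1% of the values 5 to 39 were even, so mates appear to have been counted apart, and halved counts were analysed as an alternative. Reads of overlapping genes may not be separable, but none of the 5 members that passed a test overlaps another gene.

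The counts were tested in R 4.3.3 with edgeR 4.0.16 and limma 3.58.1: TMM scaling, filterByExpr, all 15 libraries in a joint robust quasi-likelihood fit of 15725 genes, and Benjamini-Hochberg adjustment within each comparison at a threshold of 0.05. The common biological coefficient of variation was 0.21. Levels are TMM-scaled CPM. RefSeq symbols matched 46925 gene identifiers. Members that passed in any comparison are named with their values. Other members with a role, the most and least abundant, and up to 4 genes of smallest p per further list may be named. The members and lists were chosen with earlier results of these data known. Alternatives were other scaling, filters and fits, a replicate block, DESeq2 1.42.0, and leaving out libraries. The scripts were tested on simulated data. Promoter and protein sequences were not used here. Values of 2 tested members are not reported here by name, and both are left out of the plots of single genes.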

Additional observations from a re-analysis of the deposited data

Results flagged for a closer look

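In each group of 5 libraries, the highest or lowest library was set against the others for each of the 34 tested sperm function genes and for the summed level of all 38, by Dixon's gap over range, with a critical value of 0.71. Of 105 groups checked, 3 passed, where chance passes about 1 in 20. In ACP7 OE library 4, spe-58 was lowest at 0.385 CPM, against 0.749 to 0.892 CPM in the other ACP7 OE libraries. In ACP7 OE library 2, spe-18 was lowest at 7.41 CPM, against 9.54 to 10.1 CPM in the others, and still above every wild-type library. In wild-type library 3, spe-21 was highest at 0.647 CPM, against 0.0986 to 0.228 CPM in the other wild-type libraries. ACP7-7A OE libraries 1 and 2 deviated together, which this measure of a single library does not pick up.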

How the results depend on the processing

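No result reversed, and the median log2 fold change of the sperm function genes stayed above 0 in every comparison and setting. Leaving out 1 library at a time gave 1 to 9 members called in ACP7 OE against wild type (256 to 794 of all genes), 0 to 2 in ACP7-7A OE against wild type (402 to 2248) and 0 to 3 between the constructs (883 to 1901). In ACP7 OE against wild type 9 members were called without ACP7-7A OE library 2, 6 without library 1 and 1 without wild-type library 4; both highest gene counts against wild type came without wild-type library 5. DESeq2 called 6, 3 and 4 members in the same 3 comparisons, with 723, 1724 and 1807 of all genes. With only the compared groups in the fit it was 11, 0 and 1 members, with 1182, 768 and 1100 of all genes. Without ACP7-7A OE libraries 1 and 2, chosen after seeing the data, it was 13, 7 and 1 members (1422, 957 and 1614 of all genes). Without wild-type library 5 as well it was 12, 8 and 2 members (2434, 1748 and 2212 of all genes). With no filter, 0 members were called in ACP7-7A OE against wild type and 1 between the constructs, with 991 and 1315 of all 24049 genes. The stricter filter of 50 counts in 5 libraries gave 1 member between the constructs (1324 of 12270 genes), and in ACP7 OE against wild type 264 of all genes, 113 higher and 151 lower, against 233 higher and 189 lower with the usual filter. Halved counts gave 4 members between the constructs, with 1368 of 14315 genes. The replicate block gave 1 (spe-18), 0 and 1 (spe-11) members, with 289, 633 and 1035 of 15725 genes. Deviations of same-numbered libraries correlated at -0.154 to 0.121, so no pairing by number was seen, though a weak one could be missed. The causes were not tested. Low counts limit the less abundant members, and the shared wild-type libraries tie the first 2 comparisons to each other.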
